A study of Rattus norvegicus with 8 samples.

Results

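The genes described here encode 9 complement components and receptors, namely C1qa, C1qb, C1qc, C2, C3, Cfb, Cfp, C3ar1 and C5ar1, out of 23487 genes in the deposited table. They were chosen by symbol, and all 9 were found, in 10 rows, since Cfb stands under 2 Ensembl identifiers. RNA was sequenced from peritoneal macrophages of female Wistar rats, 8 weeks old, 15 days after an intraperitoneal injection of 2 mg of multi-walled carbon nanotubes. One group of 4 rats (numbered 3, 5, 10 and 11 in the labels) received the needle-like, mesotheliomagenic MWCNT-XNRI-7 (CNT-7), and the other 4 rats (numbered 1, 2, 12 and 13) received the tangled, non mesotheliomagenic CNT-T. Both particles were heated against endotoxin and given in saline with albumin, and the macrophages of both groups were isolated with a cell sorter as CD11b/c-high, His48-dim cells. The comparison asks how peritoneal macrophages differ between a particle that causes mesothelioma and one that does not. No untreated rats were analysed here, so that each difference is one between both particles and has no resting level beside it.

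Complement is a cascade of plasma proteins that tags particles and dying cells for uptake, calls in leukocytes and can open pores in membranes. The classical pathway starts when C1q binds its target, the lectin pathway when ficolins or mannose-binding lectin bind sugars, and the alternative pathway runs on C3 itself with factor B, factor D and properdin. All of them meet at the cleavage of C3, whose fragments C3b and C3a act as a tag and as a messenger. The liver makes most of the circulating proteins, but macrophages are the chief source of C1q and make several other components where they reside.

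Between 27195157 and 33732981 counts were assigned to genes in each rat, and the least abundant of the 10 rows had 562 counts in the rat with the fewest, so that counting error is small beside the spread between rats. Levels are given as CPM, that is, counts set to a common library size with TMM factors, and they are compared within a gene only, because they are not divided by transcript length. The macrophage markers Cd68, Csf1r, Adgre1, Cd14, Lyz2, Cd163, Msr1 and Mertk were all expressed. Of these 8 genes, 4 were lower in CNT-7 (Cd163, Adgre1, Csf1r and Cd68) and 1 was higher (Cd14). For these and the other marker counts below, 14.0% of all 12124 genes tested were lower and 13.9% higher. The summed level of all 8 was 17136 to 24360 CPM with CNT-7 and 25837 to 36035 CPM with CNT-T. Most of this sum came from Lyz2 (mean of 20979 CPM over all rats), which just missed an adjusted p-value under 0.10 (edgeR, 0.1002). Markers of mesothelial cells, which can also make complement, summed to at most 0.402 CPM in any rat, with Wt1 and Upk3b at 0 counts in all 8 rats. Neutrophil markers summed to 33.9 to 63.1 CPM with CNT-7 and 26.2 to 68.5 CPM with CNT-T, with Mpo at 0 counts, and the lists of T cells, B cells, NK cells, dendritic cells, eosinophils, mast cells and fibroblasts each to at most 11.6 CPM, with Gzmb, Epx and Prg3 at 0 counts. Among these small lists, 1 neutrophil gene was lower and 2 dendritic cell genes (Ccr7 and Clec9a) were higher in CNT-7. Ccr7 had 0.398 to 3.15 CPM with CNT-7 and 0 to 0.266 CPM with CNT-T. It passed the filter on low counts only through the CNT-7 rats, so that its call carries little weight. Clec9a was also low, with 0.615 to 1.98 CPM against 0.148 to 0.560 CPM. Of 6 monocyte markers, 3 were higher and 2 lower in CNT-7, with sums of 2879 to 3545 CPM against 3770 to 3794 CPM. The higher ones were Spn, Cd14, which is also among the macrophage markers, and Fcnb, which passed the filter only through the CNT-7 rats. The part of these cells in the complement levels was not tested, and in RNA from a sorted population fewer cells of a type and less RNA per cell cannot be told apart.

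For 5 of the 9 genes, the RefSeq promoter table of build GRCr8 held the 250 bases before the annotated start. Shown are those of C1qa and C1qb, whose levels differed unequally between the groups although they are near neighbours in the genome, and that of C3, whose change was the largest of the members. Capitals mark matches to the searched motifs, on either strand.
C1qa, chr5:154419934-154420183, minus strand: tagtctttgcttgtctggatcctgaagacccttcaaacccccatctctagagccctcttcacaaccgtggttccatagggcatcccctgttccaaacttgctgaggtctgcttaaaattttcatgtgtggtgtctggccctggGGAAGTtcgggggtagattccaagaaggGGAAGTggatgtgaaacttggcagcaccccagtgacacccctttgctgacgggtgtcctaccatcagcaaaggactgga
C1qb, chr5:154407828-154408077, minus strand: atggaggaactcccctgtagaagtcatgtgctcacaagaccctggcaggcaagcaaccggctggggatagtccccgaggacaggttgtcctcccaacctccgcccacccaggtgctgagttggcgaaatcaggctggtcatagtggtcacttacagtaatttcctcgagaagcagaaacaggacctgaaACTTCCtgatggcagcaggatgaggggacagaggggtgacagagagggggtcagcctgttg
C3, chr9:2201340-2201589, minus strand: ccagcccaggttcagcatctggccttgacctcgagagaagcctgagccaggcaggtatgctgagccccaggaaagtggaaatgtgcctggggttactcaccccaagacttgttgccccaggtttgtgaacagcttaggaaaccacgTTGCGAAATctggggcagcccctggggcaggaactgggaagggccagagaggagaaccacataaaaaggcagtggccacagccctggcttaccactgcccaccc
The motifs searched were ETS (GGAAGT), C/EBP (TTNNGNAAT), AP-1 (TGANTCA), NF-kB (GGG, any 2 bases, TTTCC) and the interferon-stimulated response element (GAAA, any 2 bases, GAAA), none of which overlapped with another in the windows shown. C1qa held the ETS letters in 2 places, with first bases at -107 and -79 from the start, and C1qb once on the opposite strand at -61. Of 33469 promoter windows of this length, 19.2% held them. The C3 window held the C/EBP letters at -104, which occur in 10.9% of all windows, and neither the NF-kB nor the interferon letters. A match describes letters only and is no evidence of a bound factor.

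Of the 10 rows, all of which passed the filter on low counts, 3 were higher in CNT-7 than in CNT-T (C3, C5ar1 and 1 Cfb row), 3 were lower (C1qb, C1qc and Cfp) and 4 did not pass the threshold, an adjusted p-value under 0.10. Among all 12124 genes tested, 13.9% were higher and 14.0% lower, that is 27.9% in either direction. The median log2 fold change, positive where CNT-7 was higher, was 0.15 over the 10 rows and 0.0083 over all genes, and the median of its size regardless of sign was 0.54 and 0.19. The members therefore did not move in one direction. In 5 rows, 3 above and 2 below, the values of both groups were fully separate, against 24.9% of all genes.

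**Figure D1:**
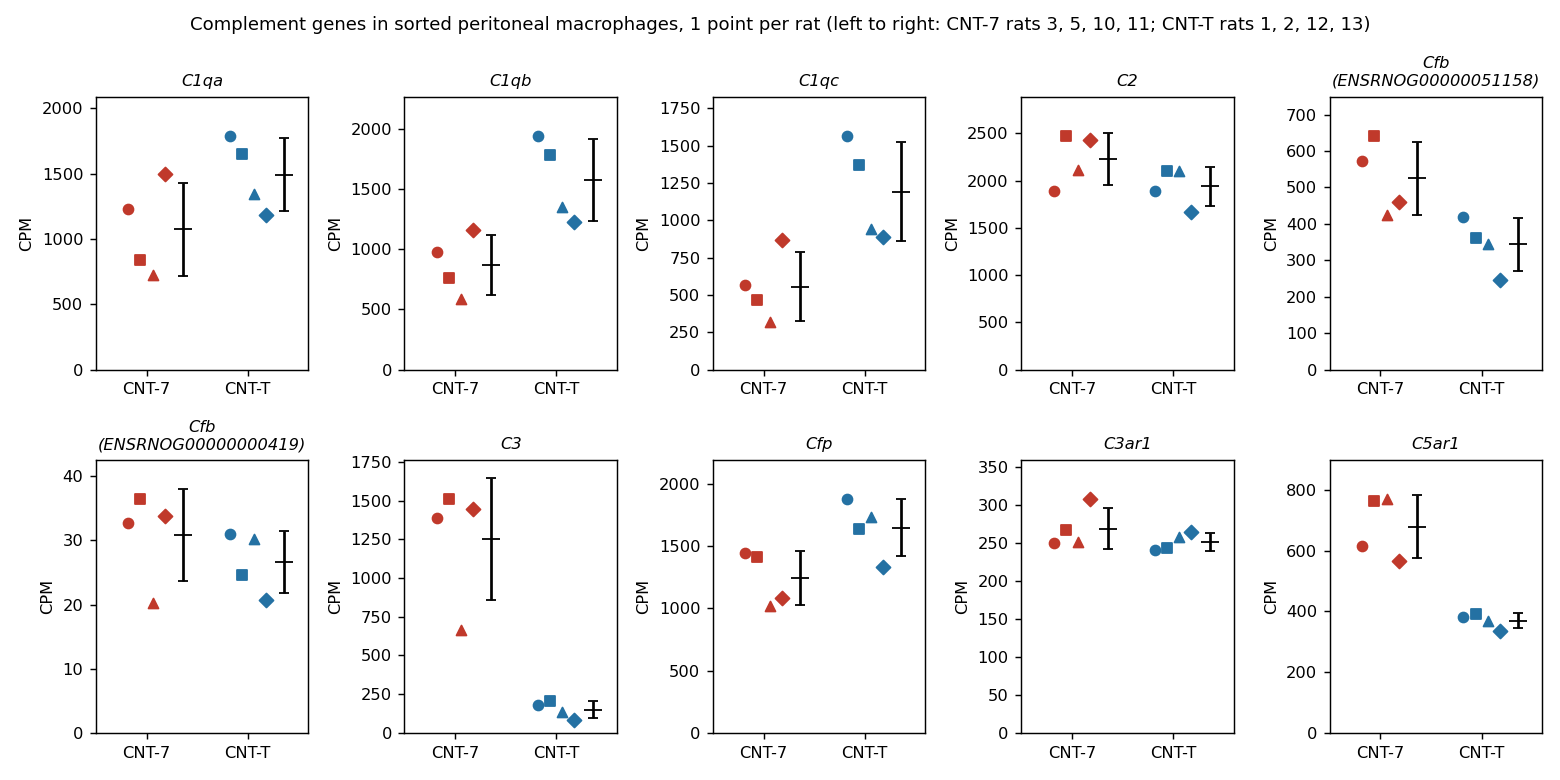
Level in CPM (vertical axis, from 0, with its own range for each gene) of the 9 complement genes in 10 rows, with 1 point per rat for CNT-7 (red) and CNT-T (blue) and the mean ± SD of 4 rats as black bars. C3 lies between 666 and 1511 CPM with CNT-7 and between 83.8 and 204 CPM with CNT-T, whereas the CNT-7 rats lie below the CNT-T rats for C1qb and C1qc and the groups overlap for C1qa, C2, Cfp, C3ar1 and the smaller Cfb row.

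C3 showed by far the widest separation among the members. C3 (ENSRNOG00000046834), the protein at which the pathways converge, had 1387, 1511, 666 and 1446 CPM in CNT-7 rats 3, 5, 10 and 11. In CNT-T rats 1, 2, 12 and 13 it had 178, 204, 134 and 83.8 CPM. Every CNT-7 rat was thus above every CNT-T rat, and the lowest CNT-7 rat, number 10, still had more than the highest CNT-T rat. The CNT-7 mean of 1253 ± 394 CPM stood against 150 ± 52.8 CPM in CNT-T (SD, n = 4), an 8.35-fold difference (log2 fold change 3.06 ± 0.33 SE, edgeR quasi-likelihood adjusted p = 0.000438). Of the 12124 genes, 99.1% had a smaller change in either direction.

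Of the 3 C1q chains, C1qb and C1qc were lower in CNT-7, and C1qa did not pass the threshold. C1q is built from the products of C1qa, C1qb and C1qc, whose genes lie side by side in the order C1qb, C1qc, C1qa. C1qc (ENSRNOG00000012804) had 568, 466, 319 and 867 CPM in CNT-7 rats 3, 5, 10 and 11 and 1567, 1370, 940 and 886 CPM in CNT-T rats 1, 2, 12 and 13. The groups did not overlap, but CNT-7 rat 11 came close to CNT-T rat 13. C1qc was lower after CNT-7 by 1.10 on the log2 scale (standard error 0.30, edgeR adjusted p = 0.0266). Its mean was 555 ± 232 CPM with CNT-7 and 1191 ± 332 CPM with CNT-T (SD, n = 4), 2.15-fold higher after CNT-T.

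C1qb (ENSRNOG00000012749) had 977, 764, 585 and 1158 CPM in the CNT-7 rats and 1947, 1788, 1351 and 1232 CPM in the CNT-T rats, in the same order. Again no CNT-7 rat reached the lowest CNT-T rat. C1qb was lower after CNT-7 by 0.86 on the log2 scale (standard error 0.22, edgeR adjusted p = 0.0216), being 1.81-fold higher after CNT-T. C1qa (ENSRNOG00000012807) had 1225, 840, 726 and 1500 CPM in the CNT-7 rats and 1790, 1647, 1340 and 1182 CPM in the CNT-T rats. These values overlapped, with CNT-7 rats 3 and 11 above CNT-T rat 13, and the difference did not pass the threshold (log2 fold change -0.47 ± 0.23 SE, adjusted p = 0.180 from edgeR). Without CNT-7 rat 11, which had the highest level of each chain in its group, the log2 fold change of C1qa was -0.68 and passed (adjusted p = 0.0432). Of the 8 macrophage markers, 4 were lower after CNT-7, where 14.0% of all genes tested were lower. Cd163 and Adgre1 differed most, with log2 fold changes of -1.69 and -1.13. Cd68, among these 4, lost its call without any one of 6 rats. Cd14 was higher (0.46), and Lyz2, Msr1 and Mertk did not pass the threshold. The relation of these markers to the lower C1qb and C1qc was not tested.

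Because a ratio of counts of 2 genes within a rat does not depend on how the libraries are scaled, the balance between members was also compared directly. Of 8 such ratios, each compared by an exact permutation test, 5 differed, all with p = 0.0286, the smallest this design allows (two-sided, adjusted p = 0.0457 over the 8 ratios). C1qa counts were 1.25, 1.10, 1.24 and 1.30 times the C1qb counts in the CNT-7 rats but 0.919, 0.921, 0.992 and 0.960 times in the CNT-T rats. The ratio of C1qa to C1qc was 2.16, 1.80, 2.28 and 1.73 after CNT-7 and 1.14, 1.20, 1.43 and 1.34 after CNT-T. Neither ratio overlapped between the groups, with a difference in the mean log2 ratio of 0.36 for the former and 0.64 for the latter. The chains therefore differed unequally between the particles, the difference between the groups being smaller for C1qa than for each of the others. For C1qb to C1qc the difference of 0.27 did not pass, with overlap between the groups (two-sided exact permutation p = 0.0857, adjusted p = 0.114). Without CNT-7 rat 11 the difference was 0.37 (exact permutation test, adjusted p = 0.0653). This rat was the only one of CNT-7 within the CNT-T range. Leaving it out separated the groups, so that the latter p-value was fixed by that choice and is no evidence of a difference. Count ratios carry the length of each transcript and are not ratios of molecules.

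**Figure D2:**
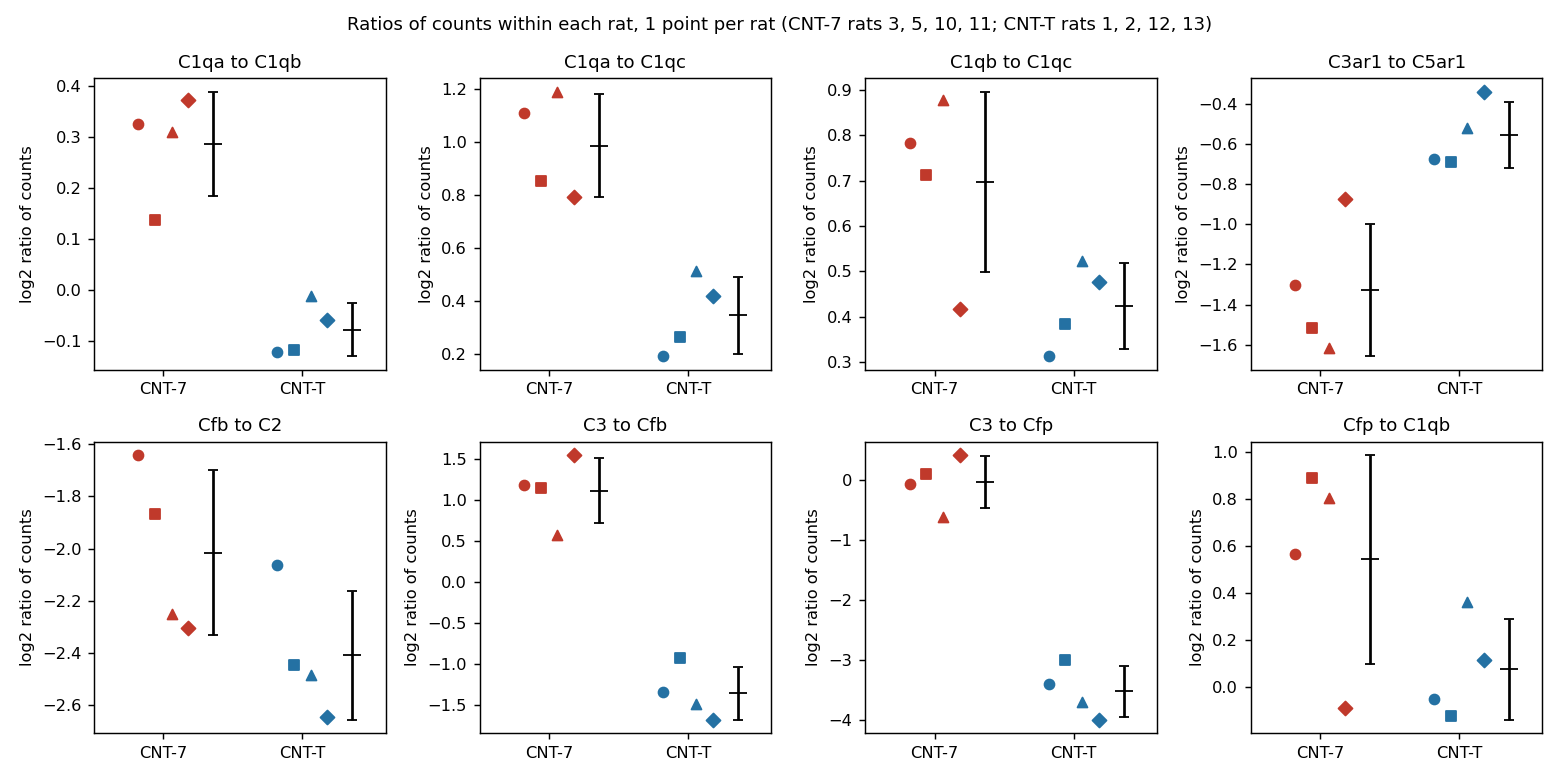
Log2 ratio of the counts of 2 complement genes within each rat (vertical axis, each panel with its own range), with 1 point per rat for CNT-7 (red) and CNT-T (blue) and the mean ± SD of 4 rats as black bars. The groups are separate for C1qa to C1qb, C1qa to C1qc, C3ar1 to C5ar1, C3 to Cfb and C3 to Cfp, and they overlap for C1qb to C1qc, Cfb to C2 and Cfp to C1qb.

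The proteases C2 and factor B are homologous and do the same work in different convertases, C2 in that of the classical and lectin pathways and factor B in that of the alternative pathway. Their genes are neighbours. C2 (ENSRNOG00000051235) had 1893, 2476, 2116 and 2428 CPM in CNT-7 rats 3, 5, 10 and 11 and 1886, 2101, 2100 and 1672 CPM in CNT-T rats 1, 2, 12 and 13. The groups overlapped, and the log2 fold change of 0.20 ± 0.11 (SE, adjusted p = 0.259) did not pass the threshold.

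The larger Cfb row (ENSRNOG00000051158) had 574, 642, 425 and 459 CPM in the CNT-7 rats and 420, 361, 345 and 247 CPM in the CNT-T rats. No values overlapped, but CNT-7 rat 10 was barely above CNT-T rat 1. It was 1.53-fold higher after CNT-7 (log2 fold change 0.61 ± 0.18 SE, adjusted p = 0.0359 from edgeR), and without CNT-7 rat 5 it just missed the threshold (0.50, adjusted p = 0.101). The smaller row (ENSRNOG00000000419) had 20.3 to 36.4 CPM with CNT-7 and 20.8 to 31.0 CPM with CNT-T (log2 fold change 0.21, adjusted p = 0.484). How reads were divided between both rows is uncertain, and with the rows summed, an alternative chosen after seeing the data, Cfb had a log2 fold change of 0.59 (adjusted p = 0.0409). Relative to C2, the summed Cfb counts were 0.39 higher on the log2 scale after CNT-7, with overlap (two-sided exact permutation p = 0.143, adjusted p = 0.143), so that a different response of the 2 proteases was not shown. Without CNT-T rat 1 this difference was 0.51 (exact permutation test, adjusted p = 0.0762). As that rat was the only one of CNT-T within the CNT-7 range, the latter p-value was fixed by leaving it out and is no evidence of a difference.

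Cfp encodes properdin, which stabilises the convertase of the alternative pathway. Cfp (ENSRNOG00000025811) had 1448, 1415, 1022 and 1087 CPM with CNT-7 and 1878, 1641, 1735 and 1333 CPM with CNT-T. CNT-T rat 13 lay below CNT-7 rats 3 and 5. The gene was lower after CNT-7 by 0.41 on the log2 scale (standard error 0.15, edgeR adjusted p = 0.0788). This call was lost when any one of CNT-7 rats 10 and 11 or CNT-T rats 1, 2 and 12 was left out (edgeR adjusted p between 0.138 and 0.170). C3 and properdin went apart, so that the ratio of C3 to Cfp counts was 0.958, 1.07, 0.652 and 1.33 in the CNT-7 rats and 0.0949, 0.124, 0.0773 and 0.0629 in the CNT-T rats, an 11.2-fold difference without overlap. The ratio of C3 to Cfb was 5.56-fold higher after CNT-7, so that the particles differed more in C3 than in Cfb. Cfp relative to C1qb differed by 0.47 on the log2 scale, with overlap (exact permutation test, two-sided, p = 0.114, adjusted p = 0.131), and by 0.68 without CNT-7 rat 11 (exact permutation test, adjusted p = 0.0653). Here too rat 11 was the only one of CNT-7 within the CNT-T range, so that the latter p-value was fixed by leaving it out.

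The receptors of the anaphylatoxins C3a and C5a are G protein-coupled and guide and activate myeloid cells. C5ar1 (ENSRNOG00000047800), the receptor of C5a, had 616, 763, 770 and 564 CPM in CNT-7 rats 3, 5, 10 and 11 and 383, 393, 369 and 335 CPM in CNT-T rats 1, 2, 12 and 13. The lowest CNT-7 rat was well above the highest CNT-T rat. Its level was 1.83-fold higher after CNT-7 (log2 fold change 0.88 ± 0.11 SE, adjusted p = 0.00102), with 678 ± 104 CPM against 370 ± 25.5 CPM (SD, n = 4).

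C3ar1 (ENSRNOG00000009211), the receptor of C3a, had 250, 267, 251 and 308 CPM in the CNT-7 rats and 240, 244, 257 and 265 CPM in the CNT-T rats. The values lay close together and overlapped, and the log2 fold change of 0.096 ± 0.084 (SE, adjusted p = 0.474) did not pass the threshold. The receptors did differ from each other in their response. C3ar1 counts were 0.405, 0.349, 0.326 and 0.546 times those of C5ar1 in the CNT-7 rats and 0.628, 0.621, 0.698 and 0.792 times in the CNT-T rats, without overlap (difference in the mean log2 ratio -0.77, exact permutation test, two-sided, p = 0.0286, adjusted p = 0.0457). The level of the ligand's precursor, C3, was higher after CNT-7, whereas the difference in its receptor did not pass the test. C5, the precursor of C5a, had under 1 CPM in both groups (means of 0.0754 and 0.0991 CPM) and was not tested.

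**Figure D3:**
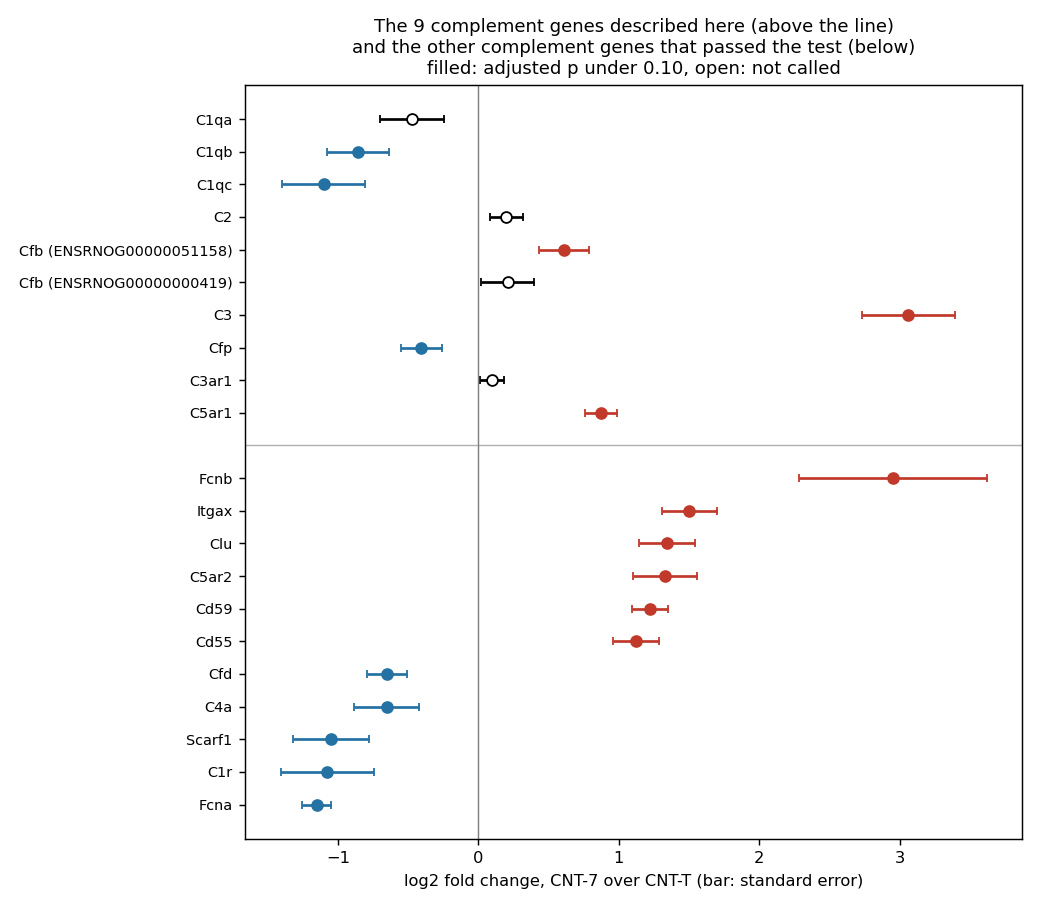
Log2 fold change between the particles, positive for higher in CNT-7 (horizontal axis), with its standard error for the 10 rows of the complement genes described here (above the line) and for the 11 other complement genes that passed the test (below, in order of the fold change), with filled points for an adjusted p-value under 0.10. C3 stands at 3.06 and C1qc at -1.10, and among the other genes Fcnb, Itgax, Clu, C5ar2, Cd59 and Cd55 lie on the side of C3 and Fcna, C1r, Scarf1, C4a and Cfd on that of C1qc. Fcnb passed the filter on low counts only through the CNT-7 rats.

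To place these genes within the pathway, a list of 49 other complement genes was examined, of which 47 had a row and 24 passed the filter. In CNT-7, 6 were higher and 5 lower, and 13 did not pass, where 13.9% of all genes tested were higher and 14.0% lower. The median log2 fold change of the 24 genes was 0.022, and its median size was 0.64 against 0.19 over all genes. Among the initiators, C1r, the protease that C1q activates, had 18.0 ± 10.0 CPM with CNT-7 and 37.9 ± 4.12 CPM with CNT-T (SD, n = 4; log2 fold change -1.08, adjusted p = 0.0466). Its partner C1s had under 1 CPM in both groups. C4a was lower (-0.65, adjusted p = 0.0754) and its near-identical copy C4b was not called (-0.43, adjusted p = 0.115), and since their reads can be shared, neither value is certain. Fcna, a ficolin of the lectin pathway, had 202 ± 23.8 CPM against 450 ± 45.8 CPM (-1.15, adjusted p = 0.000254). Fcnb, another ficolin, had 0.737 to 1.38 CPM in the CNT-7 rats and 0 to 0.325 CPM in the CNT-T rats, with a mean under 1 CPM in both groups. It passed the filter only through the CNT-7 rats, so that its call (log2 fold change 2.95, edgeR adjusted p = 0.0125) carries little weight. With at least 10 counts required in every rat, Fcnb was not tested, and 5 genes of this list were higher. Cfd, the factor D that cuts factor B, had 176 ± 34.5 CPM against 278 ± 29.6 CPM (-0.65, adjusted p = 0.0103). The calls of C1r and C4a were lost without CNT-7 rat 5 or CNT-T rat 2, which left 3 lower genes.

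Of 7 regulators tested, 3 were higher and 4 were not called, and of 8 receptors 2 were higher, 1 was lower and 5 were not called. Among all genes tested, 27.9% were called in either direction. Cd55, which speeds the decay of convertases on the cell's own surface, had 428 to 670 CPM with CNT-7 and 203 to 273 CPM with CNT-T (log2 fold change 1.12, adjusted p = 0.00178). Cd59, which blocks the membrane attack complex, had 184 to 296 CPM with CNT-7 and 95.4 to 109 CPM with CNT-T (1.22, adjusted p = 0.000422). Both thus separated the groups, and Clu, a soluble inhibitor of the same complex, did so at a lower level, with 2.83 to 4.15 CPM against 1.15 to 1.63 CPM (1.34, adjusted p = 0.00204). C5ar2, the other receptor of C5a and a neighbour of C5ar1, had 8.36 to 19.2 CPM against 4.49 to 5.64 CPM (1.33, adjusted p = 0.0039). Itgax, a chain of complement receptor CR4, had 28.9 to 55.2 CPM against 11.9 to 16.2 CPM (standard error of the log2 fold change 0.20, edgeR adjusted p = 0.00100). Scarf1, a scavenger receptor that binds C1q, was lower after CNT-7 by 1.05 on the log2 scale (edgeR adjusted p = 0.0213).

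C6, a part of the membrane attack complex, was named, like C4b and Fcnb, after its values were seen. It had 4276 to 4891 CPM with CNT-7 and 3442 to 4455 CPM with CNT-T. These values overlapped, and the log2 fold change of 0.24 did not pass the threshold (adjusted p = 0.121). The other terminal components were near or below the filter, with C8a and C8b at 0 counts in every rat and C7 and C9 under 1 CPM.

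Within each group the chains of C1q kept the same order of rats. In CNT-7 it was rat 11, 3, 5 and 10 from the highest to the lowest for C1qa, C1qb and C1qc, and in CNT-T it was rat 1, 2, 12 and 13 for all 3 chains. CNT-7 rat 10 had the lowest level of its group in 7 of the 10 rows, and it had the highest level of C5ar1. CNT-T rat 13 had the lowest level of its group in 9 of the 10 rows, the exception being C3ar1, of which it had the most. The farthest of all values from their group mean were those of C3, at -0.84 on the log2 scale in CNT-7 rat 10 and -0.76 in CNT-T rat 13, followed by C1qc in CNT-7 rats 11 (0.74) and 10 (-0.71). The order of the rats is a description of these 8 animals and was not tested.

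**Figure D4:**
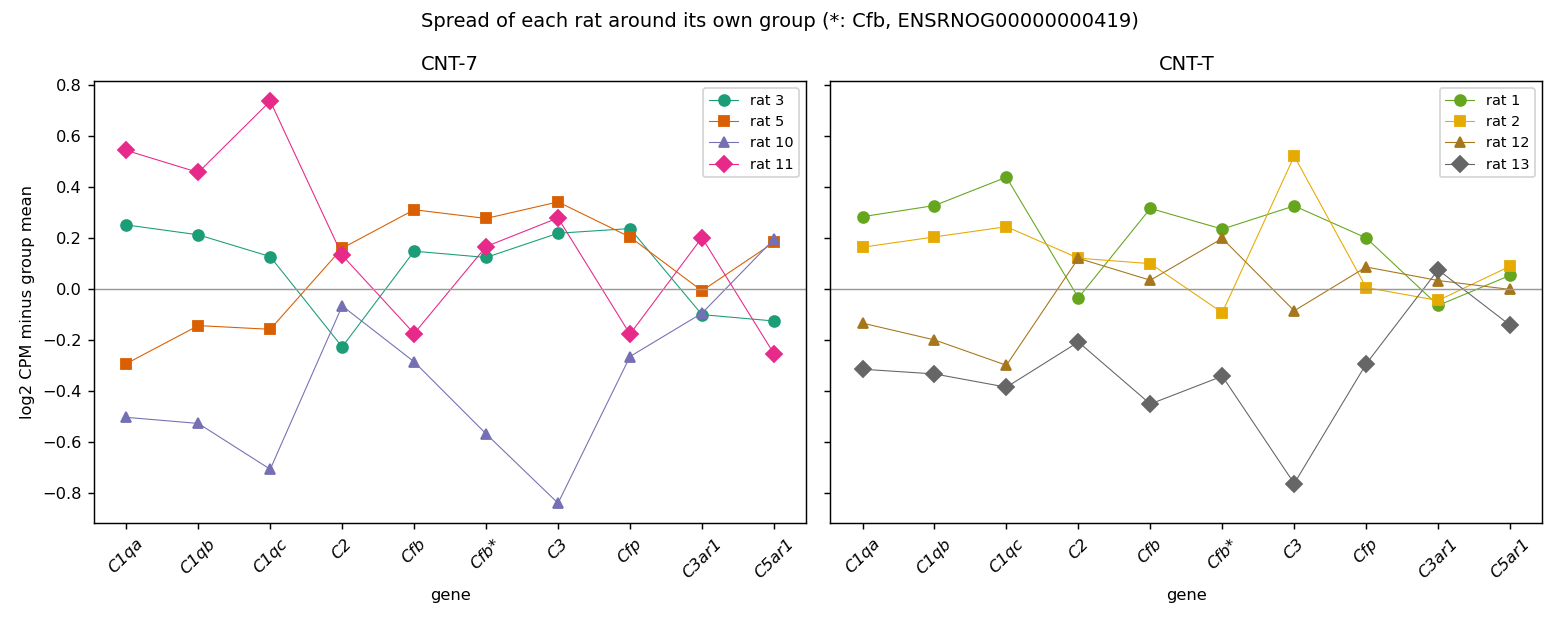
Log2 CPM of each gene minus the mean of the rat's own group (vertical axis) for CNT-7 rats 3, 5, 10 and 11 (left) and CNT-T rats 1, 2, 12 and 13 (right), with 1 line per rat drawn to guide the eye between genes. CNT-7 rat 10 and CNT-T rat 13 run lowest for the C1q chains, Cfb, C3 and Cfp, whereas C2, C3ar1 and C5ar1 stay between -0.25 and 0.20 of the group mean.

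The genes most like each member were those with the smallest root mean square difference in centred log2 CPM over the 8 rats, among 8351 tested genes with a mean of at least 10 CPM. For C1qb and C1qc the nearest was St14 (differences of 0.14 and 0.17), followed by Ceacam4 and RT1-N3 for C1qb and by RT1-N3 and C1r for C1qc. For C1qa they were Psmb9 (0.14), RT1-CE10 and Ldlrad3. Cd74 was nearest to C3 but at a wider distance (0.41), before Rarb and LOC690045. C5ar1 lay nearest to Ptgs1 (0.081), Runx1 and Mfsd6, the larger Cfb row to Nfkb2 (0.097) and, also among its 3 nearest, Nfkbie, and Cfp to Limd2 (0.10), Dcp1b and Dgkg. The nearest genes of C2 were Selenon (0.073), Crlf2 and Map1lc3b, and those of C3ar1 were Senp3 (0.049), Klhdc2 and Ascc2, all with little change between the groups like these members themselves. The smaller Cfb row was nearest to Nynrin (0.093), Gatm and LOC690000. Reads of RT1 genes can be divided between similar copies.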

How the data were processed

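Macrophages of 4 rats per particle were sequenced, and sample titles gave each rat's particle and number. The authors quantified paired end reads of stranded mRNA libraries with Salmon (version not given in the sources used here) against the Ensembl cDNA sequences of Rnor_6.0, imported them with tximeta and deposited estimated counts per gene. These were whole already and were not normalized, so that rounding changed nothing.

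The whole table was fitted with the quasi-likelihood test of edgeR 4.0.16 (R 4.3.3), with TMM scaling and filterByExpr (minimum count 10, minimum total 15). P-values were adjusted by Benjamini-Hochberg over all 12124 genes tested, with a threshold of 0.10 as in the study. The standard error (SE) of a log2 fold change is its size over the root of the F statistic. The log2 ratios of counts (both Cfb rows summed) were compared by exact permutation tests, two-sided. The scripts were tested on simulated counts. Reads carry no molecular identifiers. The rat is the unit of replication in all tests.

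All 9 genes are given with their values, and of the wider list those called at a mean of at least 1 CPM. For each gene the 3 most similar ones are named, except 1 that is not reported here. Members and lists were chosen with earlier results of these data known. Alternatives were DESeq2 1.42.0, upper-quartile factors, library totals, other filters and thresholds, and each rat left out in turn. No genome of the authors' build was used. Promoter sequences and gene neighbours come from RefSeq tables of GRCr8.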

Additional observations from a re-analysis of the deposited data

Results flagged for a closer look

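C3 in CNT-7 rat 10 stood apart from its group. It had 666 CPM, whereas rats 3, 5 and 11 had 1387 to 1511 CPM, and Dixon's ratio, the distance to the nearest other rat over the whole range, was 0.854, beyond its 95% critical value for 4 samples. It was the only one of 36 groups of 4 values examined (10 rows and 8 ratios in both treatments) to do so. Chance gives about 1 in 20, that is 1.8 of the 36 groups, so that 1 such group is no more than chance gives. Without this rat, C3 had a log2 fold change of 3.27 (edgeR, adjusted p = 0.000191). The cause was not tested.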

How the results depend on the processing

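No paired analysis was possible because the rats of both groups share no number. Under DESeq2, upper-quartile factors, library totals, no filter or at least 10 counts in every rat, the counts of members called stayed at 3 higher and 3 lower, and no member changed direction in any fit. A threshold of 0.05 removed Cfp. At least a 2-fold change left 1006 genes (552 higher, 454 lower), of the members 1 higher (C3) and 1 lower (C1qc), and of the wider list 3 lower. Leaving out single rats, the members numbered 2 to 3 in each direction and the lower genes of the wider list 3 to 7. C4a lost its call without any one of 5 rats, and Cd68 without any one of 6. C4b passed with DESeq2 (adjusted p = 0.0585), as did C6 (0.0709), and C6 also with library totals (0.0991). C4b also passed without CNT-7 rat 11 (edgeR adjusted p = 0.0203) or CNT-T rat 13 (0.0725), and C6 without CNT-T rat 1 (0.0519). Without single rats, the difference in log2 ratio was 0.21 to 0.37 for C1qb to C1qc, 0.27 to 0.51 for Cfb to C2 and 0.35 to 0.68 for Cfp to C1qb. The 5 ratios that differed had no overlap between the groups, and this cannot change when a rat is left out. Their adjusted p-values without single rats (at most 0.0914, exact permutation test) were therefore fixed by the design and are no sign of robustness. The causes were not tested. Depth did not limit the members, but C5, C7, C9 and C1s were too low to test.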
